A study of Mus musculus with 80 samples.

Results

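This account follows 6 mouse genes, Dpp4, Emp1, Fstl1, Itm2a, Tmem90b and Cachd1, in embryonic stem (ES) cells that lack the zinc finger protein SALL4 and in the same cells after SALL4A was put back. Out of 37889 gene symbols in the RNA tables, they were selected on their measured values, which were higher in Sall4 knockout (KO) cells than in heterozygous (het) cells in both replicates, and higher in Sall1/Sall4 double knockout (DKO) cells than in their control. Those 3 differences are therefore what the genes were chosen by and are given below as descriptions, with no test. The open question was how far each gene returned towards its het level in KO cells given wild-type or mutant SALL4A. All 6 genes are listed in every one of the 12 tables.

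SALL4 is a C2H2 zinc finger factor of the spalt-like family that is abundant in ES cells, binds AT-rich DNA and recruits the histone deacetylase complex NuRD, and SALL1 is its close relative. SALL4A is the long isoform. The title of the series concerns joint action of SALL4A and the TET enzymes, which oxidise methylated cytosine. None of the 6 genes encodes a core pluripotency factor. Each encodes a membrane or secreted protein, and most are better known from differentiated tissues than from ES cells.

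The study used RNA sequencing of mouse ES cells, and 9 groups with 12 libraries are described here. Sall4 het cells carry Sall4 flox/-, Sall4 KO cells Sall4 delta/-, and KO plus mutant cells are KO cells with a Flag-SALL4A-MUT transgene, with 2 libraries each. The other groups have 1 library each. KO plus wild type is KO cells transfected with wild-type SALL4A, DKO is Sall1-/- and Sall4-/-, DKO control is the wild type given for the DKO, Sall1 het is Sall1 flox/-, Sall1 KO is Sall1 delta/-, and TT2 is a wild-type ES line. Het and KO cells of each gene thus share 1 null allele. The labels say neither what the mutation in SALL4A is, nor whether a line is 1 clone, nor how long after deletion or transfection RNA was taken. Replicate 1 of the Sall4 groups is labelled C57BL/6J and replicate 2 as 129P2/OlaHsd line E14.1, although both replicates of a group cite the same sample record, so they may be technical. Any p-value then measures only the spread between these libraries.

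Replicate 2 of the Sall4 groups was deposited as RPKM (reads per kilobase, scaled to mapped reads) and everything else as FPKM (the same for fragments). These units hold no counts, so the depth is unknown. Of 14 pluripotency markers, 12 were listed in all 6 Sall4 tables, and each was at 1 or more in all 12 libraries, with sums from 2240 to 2970. Sall4 RNA does not check the labels: it was 358 FPKM in KO against 196 in het replicate 1, and 218 against 64.2 RPKM in replicate 2. It was also 109 FPKM in the DKO against 17.6 in its control. In KO plus mutant it was 77.4 FPKM and 161 RPKM, and in KO plus wild type 97.4 FPKM. Each of these was below KO of the same replicate, so Sall4 RNA does not show the add-back either. Which exons those values count is not named there, so every direction below is that of libraries labelled KO, het, DKO, control or add-back.

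The promoters of the 6 genes did not share a base composition. RefSeq (assembly GRCm38.p6) gave an entry for each gene, and 7 entries in all because Emp1 had 2. Of these, 4 windows are shown, each the 250 bases before the start on the gene's strand with CG dinucleotides in capitals, because they show both ends of that range. Dpp4 (chr2:62412232-62412481, minus strand) and the first Emp1 start (chr6:135362681-135362930, plus strand) are poor in CG, whereas Tmem90b (chr2:149830533-149830782, plus strand, current symbol Syndig1) and Cachd1 (chr4:100776429-100776678, plus strand) are rich in it.
Dpp4: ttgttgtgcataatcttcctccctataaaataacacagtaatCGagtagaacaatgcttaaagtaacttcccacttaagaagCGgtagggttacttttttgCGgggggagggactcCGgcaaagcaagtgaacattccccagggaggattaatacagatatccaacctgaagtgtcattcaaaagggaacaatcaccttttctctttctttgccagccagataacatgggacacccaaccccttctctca
Emp1: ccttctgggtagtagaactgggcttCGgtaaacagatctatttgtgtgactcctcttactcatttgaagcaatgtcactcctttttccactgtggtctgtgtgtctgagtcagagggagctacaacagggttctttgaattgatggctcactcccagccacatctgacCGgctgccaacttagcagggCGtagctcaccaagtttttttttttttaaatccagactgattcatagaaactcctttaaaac
Tmem90b: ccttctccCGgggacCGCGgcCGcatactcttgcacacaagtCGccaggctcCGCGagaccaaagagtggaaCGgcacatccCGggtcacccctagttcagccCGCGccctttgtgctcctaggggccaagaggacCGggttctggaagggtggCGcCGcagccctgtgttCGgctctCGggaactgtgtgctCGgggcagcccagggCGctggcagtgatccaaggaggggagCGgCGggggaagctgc
Cachd1: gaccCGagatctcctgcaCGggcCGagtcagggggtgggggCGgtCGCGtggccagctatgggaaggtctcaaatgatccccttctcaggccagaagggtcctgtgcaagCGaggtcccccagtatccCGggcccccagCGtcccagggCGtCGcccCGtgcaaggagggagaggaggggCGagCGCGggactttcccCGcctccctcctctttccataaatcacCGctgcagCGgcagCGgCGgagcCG

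The window of Dpp4 held 4 CG dinucleotides and those of Emp1 held 3 each. Itm2a (chrX:107403361-107403610, minus strand) held 6. In contrast, Fstl1 (chr16:37776805-37777054, plus strand) held 16, Tmem90b 20 and Cachd1 21. The median over 32851 RefSeq promoters was 6 and the quartiles were 2 and 16. So 3 of the genes lay at or above the upper quartile and the other 3 at or below the median. All 6 were chosen as higher in KO, so a link between CG content and that difference was not tested.

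No window held the AT-rich hexamer AATATT, which occurred in 6.17% of all promoters of this length. TATAAA occurred in the Dpp4 window alone, beginning 227 bases before the start, and in 12.4% of all promoters. GGGCGG, or its reverse complement CCGCCC, occurred in Cachd1 beginning 212 bases before the start, in Fstl1 at 46 and 22, and in Itm2a at 48, against 32.7% of all promoters. Both strands were searched, the 3 hexamers do not overlap one another in these windows, and a match is a string of letters, not a bound site.

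Dpp4 encodes a cell-surface serine peptidase, also called CD26, that clips dipeptides from hormones and chemokines. In the tables of replicate 2 its gene spans chr2:62168129-62308970 (mm9). Its value was 6.88 in het and 44.4 in KO in replicate 1 (FPKM), and 4.35 and 37.7 in replicate 2 (RPKM). DKO cells had 23.9 FPKM and their control 3.81. The 2 KO libraries and the DKO were thus the highest of the 12, well above the next, 8.74 in KO plus mutant replicate 2. After scaling of the libraries, KO exceeded het 6.65-fold and 7.97-fold. By this fold Dpp4 came next after Tmem90b (6.95) in replicate 1 and after Cachd1 (9.66) in replicate 2, among the 6 genes.

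The replicate 1 add-back libraries of Dpp4 lay close to het, and mutant replicate 2 lay higher. KO plus mutant had 7.13 FPKM and 8.74 RPKM, and KO plus wild type had 5.70 FPKM. On the log2(scaled value + 1) scale, which is used for all log2 values here and understates the change of low genes, the differences from KO of the same replicate were -2.26 and -1.64 with mutant and -2.58 with wild type. Sall1 het and KO had the lowest values of all libraries, 1.81 and 2.28. TT2 had 7.76 when its 3 transcripts were summed, which made Dpp4 the only one of the 6 genes that was not lowest in TT2.

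Emp1 encodes a small tetraspan membrane protein of the PMP22 family and lies at chr6:135312948-135333191 (mm9) in every table. It was 11.2 FPKM in het and 58.5 in KO in replicate 1, and 8.54 and 51.4 RPKM in replicate 2. DKO had 65.4 FPKM and the control 19.5. KO exceeded het 5.38-fold and 5.53-fold after scaling, so the replicates lay close together.

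Emp1 stayed further above het than Dpp4 did in the add-back libraries. KO plus mutant had 24.4 FPKM and 19.3 RPKM, and KO plus wild type 18.7 FPKM. Mutant add-back was 1.33 above het on the log2 scale in each replicate, and wild type was 0.92 above. Sall1 het and KO had 21.4 and 18.8 FPKM, near the DKO control. TT2 had 1.41.

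Fstl1 encodes a secreted glycoprotein of the follistatin and SPARC family that can bind BMP ligands and dampen their signalling. Its locus is chr16:37776958-37836600 (mm9), and the replicate 1 tables of Sall4 het and KO split it into 3 entries, which were summed. It was 15.3 FPKM in het and 66.3 in KO in replicate 1, and 9.98 and 55.4 RPKM in replicate 2. DKO had 129 FPKM, the highest value of any of the 6 genes, and its control 36.4.

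With mutant SALL4A, Fstl1 was 16.7 FPKM and 21.2 RPKM, and with wild type 17.7 FPKM. The replicates of the mutant differed in distance from het, 0.39 in the first and 1.26 in the second on the log2 scale, while wild type was 0.43 above het. The gap between the KO or DKO libraries and the rest was narrowest here, 55.4 against 36.4 in the DKO control. Sall1 het and KO had 21.1 and 20.4 FPKM, and TT2 had 0.917.

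Itm2a encodes a single-pass membrane protein with a BRICHOS domain, known from cartilage and T cells, at chrX:104592437-104598715 (mm9). It was 8.57 FPKM in het and 35.8 in KO in replicate 1, and 9.99 and 52.4 RPKM in replicate 2. DKO had 43.6 FPKM and its control 17.2, a log2 ratio of 1.32, the lowest of the 6 genes in that pair.

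Of the 6 genes, Itm2a stayed nearest to KO in the replicate 1 add-back libraries. KO plus mutant had 19.7 FPKM and KO plus wild type 20.1 in that replicate, log2 differences from KO of only -0.60 and -0.61. In replicate 2, KO plus mutant had 13.7 RPKM, a log2 difference of -1.50. Sall1 het and KO had 11.1 and 10.3 FPKM and TT2 0.603.

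Tmem90b, now Syndig1, encodes a membrane protein that takes part in forming excitatory synapses, and spans chr2:149654946-149830128 (mm9). Its levels were low. It was 1.06 FPKM in het and 7.17 in KO in replicate 1, and 1.21 and 8.27 RPKM in replicate 2. DKO had 5.51 FPKM and its control 0.989. KO plus mutant had 2.15 FPKM and 2.77 RPKM and KO plus wild type 1.53 FPKM, each between het and KO of its replicate. Sall1 het and KO had 0.824 and 0.940 FPKM, and TT2 0.361.

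Cachd1 encodes a membrane protein related to the alpha2delta subunits of voltage-gated calcium channels, at chr4:100449279-100701825 (mm9). It was 2.25 FPKM in het and 10.1 in KO in replicate 1, and 1.13 and 11.9 RPKM in replicate 2. DKO had 6.72 FPKM and its control 1.93. The 2 replicates differed more here than for any other of the 6 genes, with log2 ratios of KO to het of 1.78 and 2.46. KO plus mutant had 1.85 FPKM and 2.47 RPKM, and KO plus wild type 2.73 FPKM. Against het, that was a log2 difference of 0.01 and 0.88 with mutant and 0.38 with wild type. Sall1 het and KO had 1.98 and 2.58 FPKM and TT2 0.159.

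**Figure D1:**
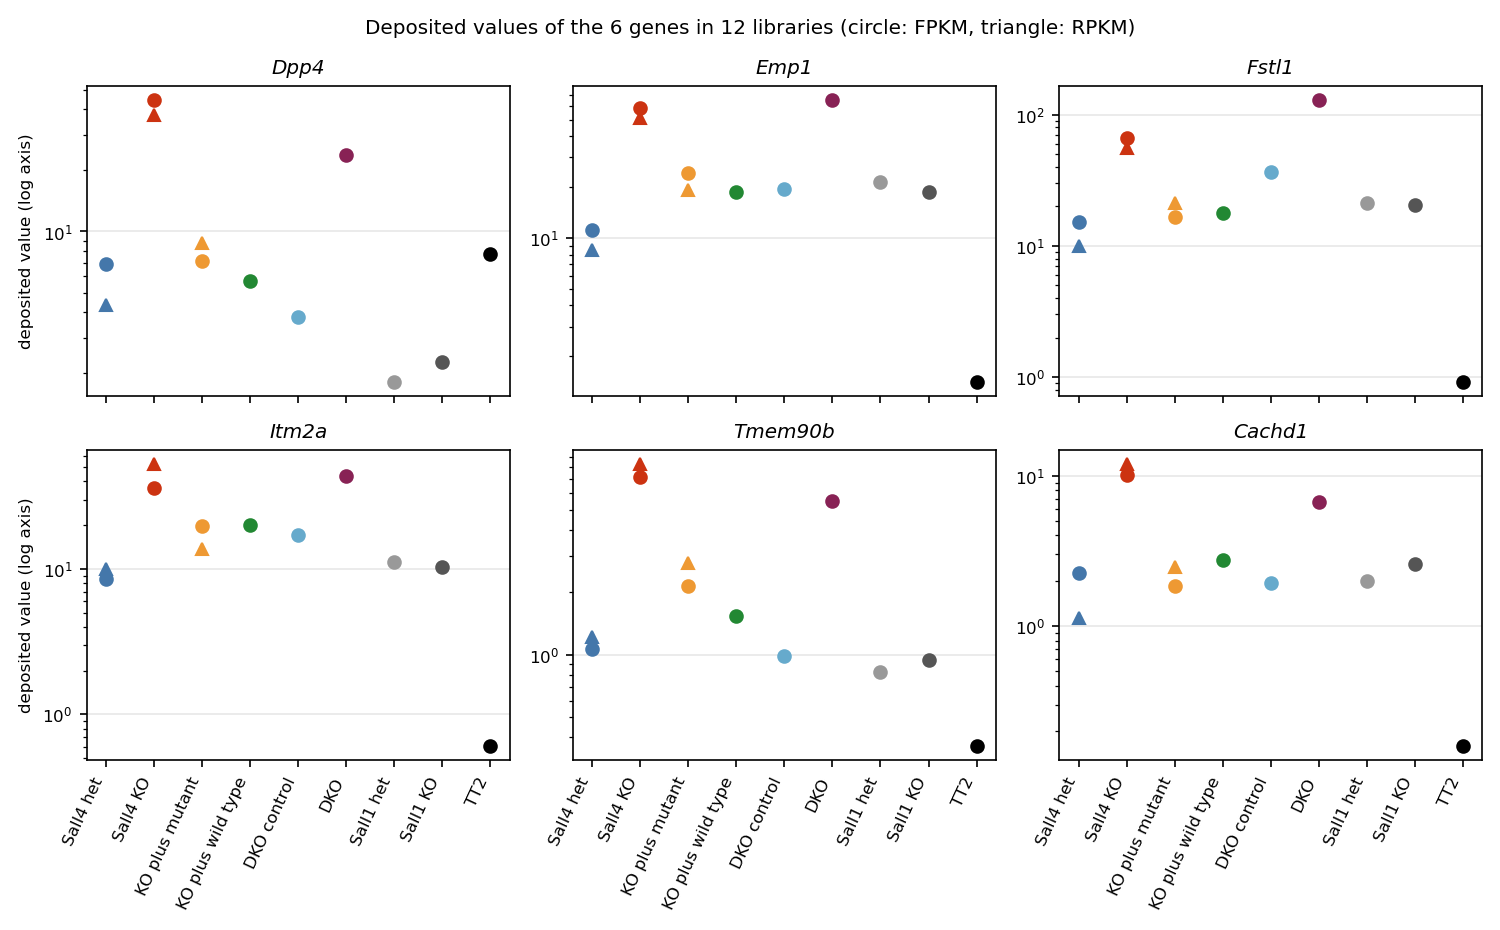
Each panel plots the deposited value of 1 gene on a log axis, with 1 point per library, circles for FPKM and triangles for RPKM, and libraries grouped along the x axis. In every panel the 2 Sall4 KO libraries and the DKO library lie above the other 9, for Fstl1 at 55.4 or more against 36.4 or less.

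The order of the levels had a common top and no common middle. For all 6 genes the first 3 places belonged to both KO libraries and the DKO, which the choice of the genes fixes in part. The highest of the other 9 libraries was KO plus mutant for Dpp4, Emp1 and Tmem90b, KO plus wild type for Itm2a and Cachd1, and the DKO control for Fstl1. Within those 9, het, add-back, DKO control and Sall1 libraries interleaved, with 1 or 2 libraries a group, so no order among neighbouring groups is drawn. TT2 was lowest of the 12 for every gene but Dpp4, and its table is at transcript level, unlike the others.

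Across the pairs, the log2 ratio of KO to het ran from 1.78 to 2.56 in replicate 1 and from 1.94 to 2.73 in replicate 2. All 6 genes were at 2-fold or more in each replicate, where 2.97% of all genes at 5 or more were in replicate 1 and 4.06% in replicate 2. In both replicates together, 29.7% of all genes were higher by any amount, and at 2-fold 1.01% of the 8817 genes at 5 or more were. In DKO against control the ratios ran from 1.32 to 2.39, again 6 of 6 at 2-fold or more, where 4.83% of 8621 genes were. Both counts restate the choice of the genes. The estimates of limma over the 6 Sall4 libraries of het, KO and KO plus mutant, with the replicate as a block, ranged from 1.96 ± 0.21 (SE, 2 libraries a group) for Tmem90b to 2.64 ± 0.28 for Dpp4.

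The Sall1 pair was not part of the choice. Its log2 ratios of KO to het were 0.22 for Dpp4, -0.18 for Emp1, -0.05 for Fstl1, -0.10 for Itm2a, 0.09 for Tmem90b and 0.26 for Cachd1. So 0 of 6 were at 2-fold or more, where 0.624% of all 8173 genes at 5 or more were, and only 3 of the 6 genes reached 5 in this pair. With 1 library a group this difference has no replicate check. The middle 90% of all genes in that pair lay between -0.24 and 0.24, a narrower spread than in the other pairs.

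**Figure D2:**
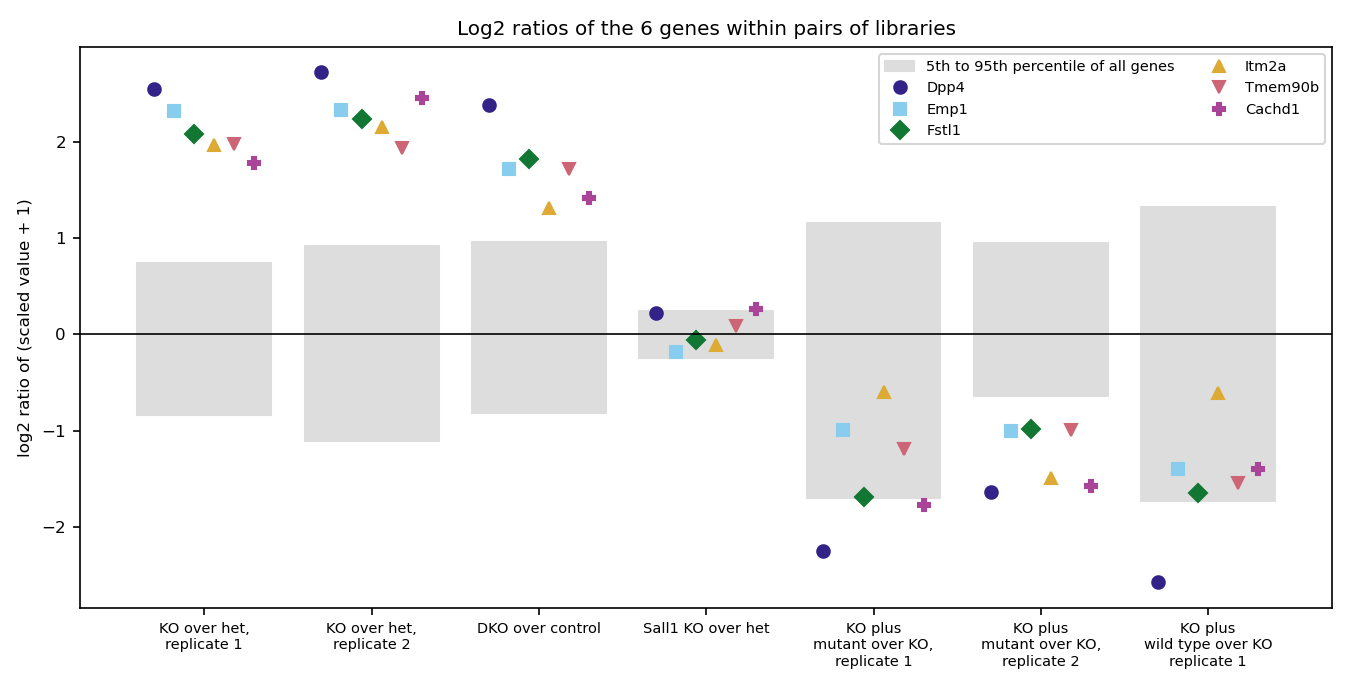
The y axis is the log2 ratio of (scaled value + 1) within pairs of libraries named on the x axis, with a marker for each of the 6 genes and a grey box from the 5th to the 95th percentile of all genes at 5 or more. The 6 genes lie above the box in the 3 pairs that chose them, between -0.18 and 0.26 in the Sall1 pair, and below 0 in each add-back pair.

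In the add-back libraries all 6 genes were lower than in KO. With mutant SALL4A the log2 ratio to KO ran from -2.26 to -0.60 in replicate 1 and from -1.64 to -0.98 in replicate 2. All 6 were lower in both replicates, where 33% of all 8583 genes were. Dpp4 and Cachd1, 2 of 6, were at least 2-fold lower in both on this scale, where 0.816% of all genes were. That count depends on the pseudocount of 1. By the fold of scaled values, with none added, it was 5 of 6, all but Itm2a, and with values as deposited it was also 5. With wild type the ratio ran from -2.58 to -0.61, and 6 of 6 were lower, where 53.5% of 8287 genes were. All but Itm2a, 5 of 6, were at least 2-fold lower with wild type, where 14.6% of all genes were. The KO libraries were chosen as high, so these counts are descriptions and nothing is read from their distance to the background.

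The gene models bear on these ratios. In replicate 2 the het, KO and KO plus mutant tables give each of the 6 genes the same coordinates. In replicate 1 the add-back tables come from another annotation than the het and KO tables. In the add-back tables the Dpp4 locus reaches up to 62250288 and not 62308970, which is its start side on the minus strand. Cachd1 reaches up to 100676353 and not 100701825. The bounds of Fstl1, Itm2a and Tmem90b also differ, and only Emp1 keeps the same coordinates. Over all genes, the middle 90% of log2 ratios of mutant to KO ran from -1.71 to 1.16 in replicate 1 and from -0.64 to 0.95 in replicate 2. In replicate 1, the ratios of Dpp4 and Cachd1 to KO were outside that range, while those of the other 4 genes lay within it. In replicate 2 all 6 were below it.

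The DKO, its control, the Sall1 pair and both replicate 1 add-back tables share 1 set of gene models. Scaled together, KO plus mutant lay below DKO in 6 of 6 genes, with log2 differences from -2.77 to -0.96, and KO plus wild type likewise, from -2.74 to -0.997. Against the DKO control, 5 of 6 were higher in each add-back library. The exception was Fstl1, at -0.93 with mutant and -0.90 with wild type. The lines differ in origin, so these are levels side by side and not a return.

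The share of the way from KO back to het, on the log2 scale within a replicate, differed among the genes. For Dpp4 it was 88.3% and 60.0% with mutant and 100.8% with wild type. For Cachd1 it was 99.6% and 64.3% with mutant and 78.9% with wild type. These 2 genes came nearest to het in mutant replicate 1, but not in mutant replicate 2. The shares of mutant replicate 1 and of wild type set add-back values against KO and het values from another annotation. Both genes span further in that annotation. Only the shares of mutant replicate 2 rest on the same coordinates throughout.

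Fstl1 returned by 81.2% and 43.7% with mutant and 79.2% with wild type. Tmem90b gave 60.0% and 51.2% with mutant and 78.0% with wild type. For Emp1 the shares were 42.7% and 42.9% with mutant, and 60.3% with wild type. Itm2a gave 30.3% and 69.3% with mutant and 31.0% with wild type. The replicates of the mutant thus lay within a point of each other for Emp1 and far apart for Itm2a, Fstl1, Cachd1 and Dpp4.

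The median over the 6 genes was 70.6% and 55.6% with mutant and 78.5% with wild type. KO plus mutant remained higher than het in both replicates for 6 of 6 genes, where 23.2% of all 8666 genes were, although for Cachd1 in replicate 1 the difference was only 0.01. With values as deposited the count was 5 of 6, without Cachd1. On the log2(scaled value + 1) scale Emp1, 1 of 6, was at least 2-fold above het in both replicates, where 0.715% of all genes were. By the fold of scaled values with no pseudocount, 2 of 6 were, Emp1 and Tmem90b. KO plus wild type was above het for 5 of 6, where 46.9% of 8308 genes were, with Dpp4 the exception at -0.02. Itm2a, 1 of 6, was at least 2-fold above het with wild type, where 6.58% of all genes were, and with upper quartile scaling 2 of 6 were, Emp1 as well. The het libraries also entered the choice of the genes, and 4 of the 6 genes reached 5 in each pair of add-back and het.

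**Figure D3:**
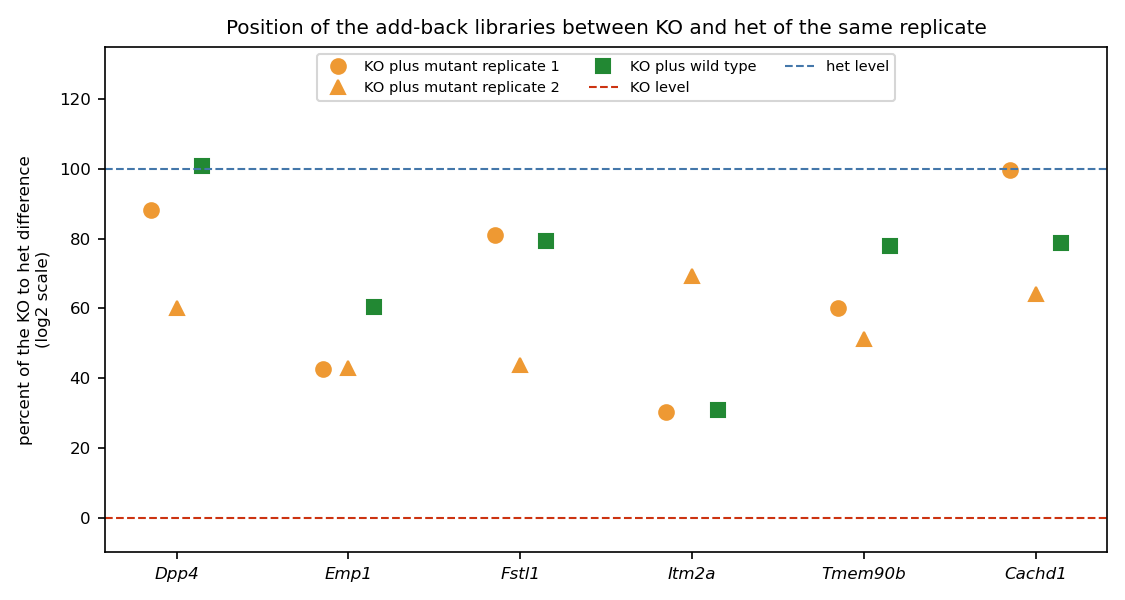
The y axis gives the percent of the log2 difference between KO and het that an add-back library had covered, with KO at 0 and het at 100, for each gene on the x axis. All points lie between 30.3% for Itm2a with mutant in replicate 1 and 100.8% for Dpp4 with wild type. Only mutant replicate 2 has the same coordinates as its KO and het for every one of the 6 genes.

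Wild-type and mutant add-back can be compared by a test, since neither of these groups entered the choice. The fit is not independent of the choice, because its block shift and spread also draw on the het and KO libraries. Without the block, the estimate for Emp1 was -0.27 and not the -0.42 given below. The limma fit used 7 libraries, with KO plus wild type placed in the block of replicate 1. The mutant group mixes annotations, since its replicate 1 shares gene models with wild type and its replicate 2 does not. The block is fitted to het and KO as well, so it need not remove that difference. With 1 wild-type library, its group is taken to vary as the others do, and a difference that is not called says little. The intervals carry the comparison. The log2 difference of wild type minus mutant was -0.56 ± 0.36 (SE) for Dpp4, with a 95% interval from -1.49 to 0.36. It was -0.42 ± 0.26 for Emp1, with an interval from -1.10 to 0.26. Tmem90b gave -0.42 ± 0.27, with an interval from -1.11 to 0.27. The 3 genes were lower with wild type by estimates that their intervals do not separate from 0.

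The other 3 estimates were nearer to 0. Fstl1 gave -0.23 ± 0.37, with an interval from -1.20 to 0.74. Itm2a gave 0.25 ± 0.38, with an interval from -0.75 to 1.24. Cachd1 gave 0.18 ± 0.37, with an interval from -0.78 to 1.15. Each of the 6 intervals includes a difference of 2-fold or more in at least 1 direction, so the data do not show that wild type and mutant act alike. Within replicate 1 alone, both add-back tables share gene models. There the log2 ratios of wild type to mutant were -0.33 for Dpp4, -0.42 for Emp1 and 0.03 for Fstl1. They were -0.02 for Itm2a, -0.36 for Tmem90b and 0.36 for Cachd1. So 0 of 6 genes differed by 2-fold either way, where 2.44% of 7457 genes at 5 or more did. Of the 6 genes, 4 reached 5 in this pair.

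The adjusted p of limma was 0.996 for each of the 6 genes. At an adjusted p under 0.05, 0 of 6 and 0 of 11720 genes were called, a share of 0%. At an unadjusted p under 0.05 there were 219 over all genes. Without KO plus mutant replicate 1 the call count over all genes was 365, and without replicate 2 it was 11, but the adjusted p of the 6 genes stayed at 0.231 or above over every alternative tried. The sign of 3 estimates rests on 1 library: without KO plus mutant replicate 2, Fstl1 was 0.021 and Itm2a -0.032, and without replicate 1 Cachd1 was -0.17.

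**Figure D4:**
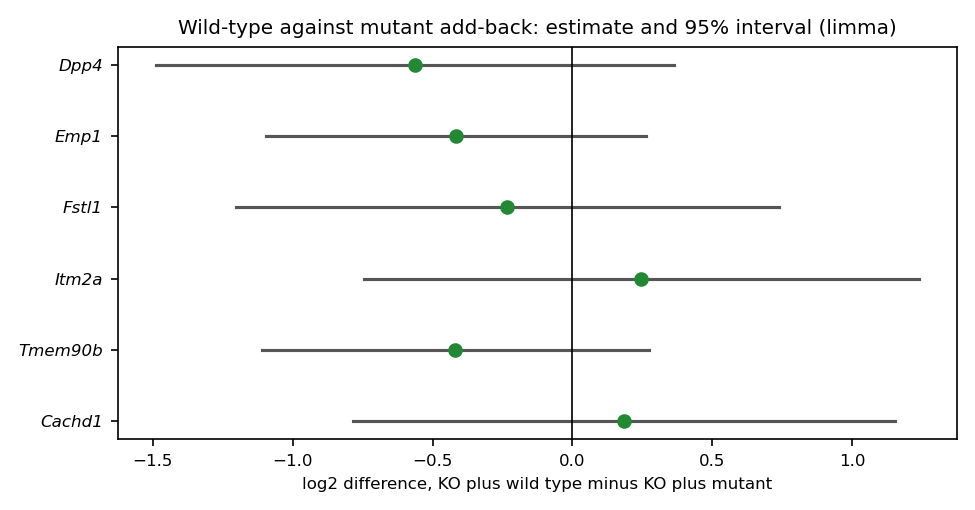
The x axis is the log2 difference between KO plus wild type and KO plus mutant estimated by limma, with a point for each gene and a line for its 95% interval. Every interval includes 0, and that of Dpp4, from -1.49 to 0.36, reaches furthest below it.

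The same limits of fold can be put on every gene. Of 9258 genes considered, 33 were at least 2-fold higher in both KO to het pairs and in DKO to control, among them all 6 genes described here and 27 others. Of the 89 genes at 2-fold or more in both KO to het pairs, 33 (37.1%) were also at 2-fold or more in the DKO pair, and 68 (76.4%) were above 0 there. The 6 genes are thus a part of a longer list with the same pattern.

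The 27 other genes were also mostly lower after add-back. With mutant, 23 of 27 (85.2%) were lower than KO in both replicates, and with wild type 26 of 27 (96.3%) were. At 2-fold on the log2(scaled value + 1) scale, 6 of 27 (22.2%) were lower in both mutant replicates and 14 of 27 (51.9%) with wild type. Their median return was 59.5% and 68.3% with mutant and 74.8% with wild type, against 70.6%, 55.6% and 78.5% for the 6 genes. In the Sall1 pair 0 of 27 were at least 2-fold higher in KO. The small RNA genes Mir3060 and AF357355, named after their values were seen, were lower there, at -5.40 and -6.64.

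Named by the smallest ratio of the 3 pairs, the leading protein-coding genes outside the 6 were Dpysl3, Gulp1, Tekt2, Anxa3 and Ckap4. Dpysl3, a cytoskeletal regulator of growing axons, had log2 ratios of 1.79 and 1.65 in KO over het and 1.52 in DKO over control. With mutant it was -1.89 and -0.41 against KO, and with wild type -2.42. Gulp1, an adaptor for engulfment of dying cells, had 1.47, 1.82 and 1.98, and then -1.59 and -0.79 with mutant and -1.59 with wild type. As for Fstl1, mutant replicate 1 lay further below KO than mutant replicate 2 in both genes.

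Anxa3, a membrane-binding annexin, had ratios of 1.40, 1.47 and 1.40. It was -1.84 and -2.21 against KO with mutant and -1.83 with wild type, which put it below het in all 3 add-back libraries, at -0.44, -0.74 and -0.44. Ckap4, a membrane protein of the endoplasmic reticulum, had 1.40, 1.38 and 1.63, and smaller differences from KO after add-back, -0.46 and -1.03 with mutant and -0.99 with wild type. Tekt2, a ciliary microtubule protein, had 1.42, 1.91 and 1.40, and then -0.80, -0.73 and -1.21.

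**Figure D5:**
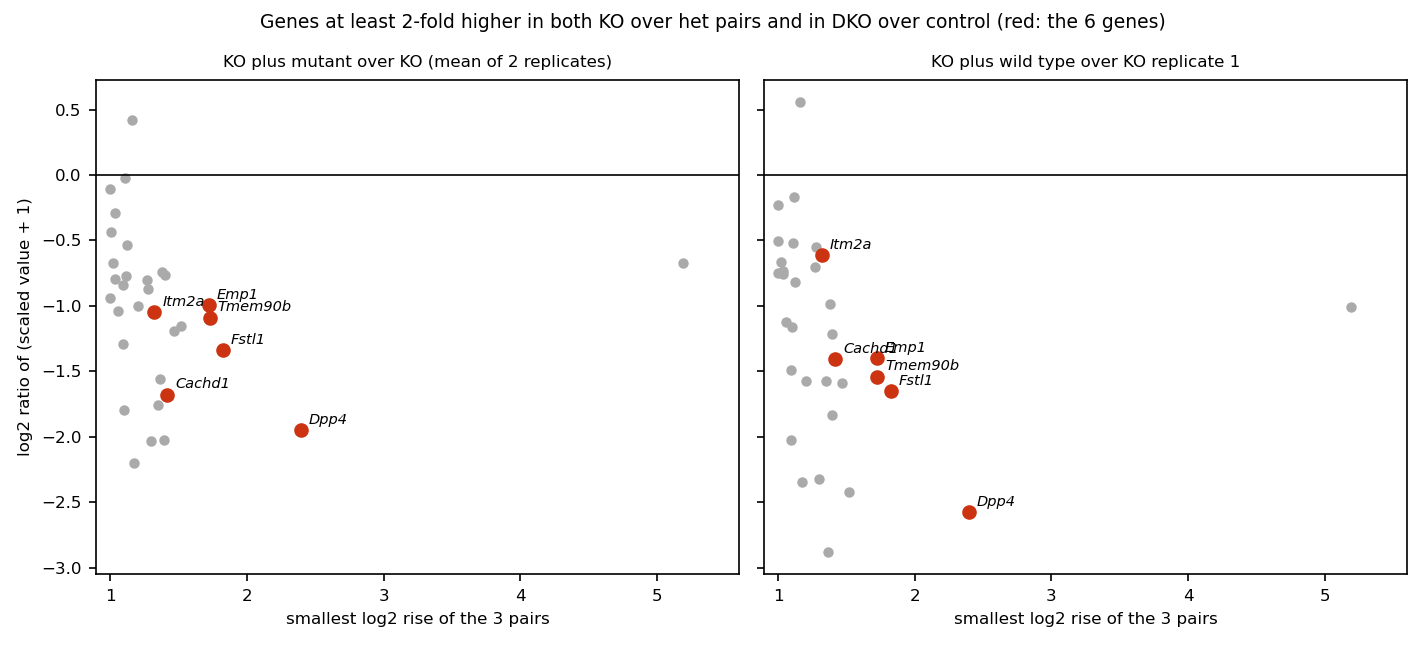
The x axis is the smallest log2 ratio of the 3 pairs for the 33 genes at 2-fold or more in all of them, and the y axis the log2 ratio to KO with mutant (left, mean of 2 replicates) or wild type (right), with the 6 genes in red. Most of the 33 lie below 0, and of the 6 genes Dpp4 lies furthest right and lowest.

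Among relatives of the 6 genes, Pmp22 was the one at least 2-fold higher in both KO to het pairs. Many others were higher by less. The limma estimate of KO minus het was above 0 for 4 of 4 tested relatives of Dpp4, 2 of 3 of Emp1, 2 of 5 of Fstl1, 2 of 2 of Itm2a and 2 of 2 of Cachd1, beside 50.1% of all genes. That fit called 0 of 11636 genes at an adjusted p under 0.05, a share of 0%, and 1119 passed at an unadjusted p under 0.05, so it does not separate relatives from the 6 genes. Of the EMP and PMP22 family, 3 relatives were listed and 1, Pmp22, a myelin protein gene, was at least 2-fold higher in both KO to het pairs. It was 5.48 and 21.9 FPKM in het and KO of replicate 1, and 1.31 and 7.35 RPKM in replicate 2. It was 0.92 above control in DKO on the log2 scale, and -2.71 and -1.97 against KO with mutant and -2.29 with wild type. Emp3 had ratios of KO to het of 0.14 and -0.29.

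Both relatives of Itm2a were somewhat higher in all 3 pairs. Itm2b, which gives rise to familial dementia peptides when mutated, had log2 ratios of 0.68 and 0.81 in KO over het and 1.49 in DKO over control. Itm2c had 0.61, 1.14 and 0.67. Of 5 relatives of Dpp4 that were listed, 0 were at 2-fold or more in both KO to het pairs or in DKO. Among them the intracellular peptidase genes Dpp8 and Dpp9 had ratios of 0.40 and 0.59, and of 0.30 and -0.05. Of 5 listed relatives of Fstl1 none was at 2-fold in both, and Sparc, a matrix glycoprotein, was lower in all 3 pairs, at -0.52, -0.61 and -0.63. Neither listed relative of Cachd1 reached 5, and none of Tmem90b was listed in all 6 Sall4 tables.

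Since FSTL1 can bind BMP ligands, genes of that pathway were set beside it. Of 18 ligands, receptors and targets, 14 were listed and 9 reached 5. Of these 1, Id2, was at least 2-fold higher in both KO to het pairs, and 3 in the DKO pair. Id2, a BMP target whose product blocks DNA binding by helix-loop-helix proteins, had ratios of 1.92, 1.18 and 1.20. Against KO it was -2.46 and -1.94 with mutant and -2.35 with wild type. Id1, of the same family, had 1.68 in replicate 1, 0.28 in replicate 2 and 1.84 in the DKO pair. Bmp4, a ligand, had 0.52, 0.14 and 1.14. These 3 are the ones at 2-fold in the DKO pair, and others of the 9 were lower in 1 pair or more. The median over the 9 genes was 0.52 and 0.19 in KO over het, beside 0.01 and -0.05 over all genes. In DKO over control it was 0.31, beside -0.01 over all genes.

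Nanog, a core pluripotency factor named after its values were seen, differed in the direction opposite to the 6 genes. It was 138 FPKM in het and 88.9 in KO of replicate 1, 397 and 208 RPKM in replicate 2, and 425 FPKM in the DKO control against 193 in the DKO. KO plus mutant had 386 FPKM and 233 RPKM and KO plus wild type 587 FPKM, log2 differences from KO of 2.35, 0.54 and 2.91. The 12 listed pluripotency markers did not move together in this way. Their median log2 ratio was -0.18 and 0.07 in KO over het and -0.03 in DKO over control. In both KO to het pairs 0 of 12 were at least 2-fold higher or lower. In the DKO pair 1 was at least 2-fold higher and 3 were lower. The part of Nanog in the values of the 6 genes was not tested.

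Markers of other cell types moved with some of these comparisons. In bulk RNA, fewer cells of a type and less RNA per cell cannot be told apart. The sum over 8 listed of 13 fibroblast markers was 71.3 in het and 141 in KO of replicate 1, but 58.2 and 50.6 in replicate 2, and 388 in the DKO control and 379 in the DKO. These sums are unscaled, and in each replicate some of the markers were higher in KO and others lower. In replicate 1 much of the rise was in Fbn1, at 11.2 FPKM in het and 44.6 in KO. Of the 8 markers, 0 were at least 2-fold higher in both KO to het pairs. The 1 at least 2-fold lower in both was Thy1, with log2 ratios of -1.88 and -1.53. After scaling, the median log2 ratio of the 8 markers was 0.86 and 0.02 in KO over het and -0.09 in DKO over control. In the add-back libraries the sum was 22.3 and 13.5 with mutant and 32.8 with wild type, lower than KO. The median log2 ratio of the 8 markers to KO was -1.28 and -0.74 with mutant and -1.30 with wild type. Not every marker was lower. Thy1 was above KO in each add-back library, at 1.36 and 0.77 with mutant and 1.71 with wild type. Col1a2 was above KO with wild type, at 0.62. The part of this cell type in the values of the 6 genes was not tested in any pair. No listed marker of this group was at 0 in any library, while 2 of 8 were under 1 in het replicate 1 and 0 of 8 in KO replicate 1.

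The sum over 7 listed of 12 primitive endoderm markers was 42.6 and 76.9 in het and KO of replicate 1, 25.6 and 50.9 in replicate 2, and 46.0 and 51.0 in the DKO control and DKO. It was 41.3 and 36.1 with mutant and 26.8 with wild type. These sums are unscaled. After scaling, the median log2 ratio of the 5 markers that reached 5 was 1.19 and 0.95 in KO over het. It was -0.02 in DKO over control, where the 6 genes were higher. Against KO it was -0.56 and -0.43 with mutant and -1.48 with wild type, though not every marker was lower in mutant replicate 2. The sum over 8 listed of 10 trophoblast markers was 117 and 166 in replicate 1, 59.5 and 72.8 in replicate 2, and 47.3 in the DKO control against 173 in the DKO. With mutant it was 67.3 and 52.2, and with wild type 67.4, again unscaled. Most of the DKO sum was Krt8 and Krt18, at 63.9 and 73.2 FPKM against 4.79 and 4.49 in the control. In replicate 2 both were lower in KO than in het, at -0.19 and -0.33 on the log2 scale. The median log2 ratio of the 5 markers that reached 5 was 0.79 and 0.67 in KO over het and 0.76 in DKO over control. Against KO it was -1.61 and -0.30 with mutant and -1.63 with wild type. The 3 listed of 8 mesoderm markers summed to 1.85 or less in every library. No marker was listed at 0, and the part of these cell types in the values of the 6 genes was not tested.

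Across 11 libraries, TT2 left out and values centred within 4 blocks of tables that belong together, the 6 genes varied together. The 15 correlations between pairs of them ran from 0.85 for Itm2a and Dpp4 to 0.99 for Tmem90b and Fstl1. These are descriptions of genes chosen for this pattern, over libraries that share controls. Of 9314 genes, 100 outside the 6 had an r above 0.9 with their mean profile. Among the nearest were Atxn7l1 (0.981), Tekt2 (0.979), Ncstn (0.976) and Elf1 (0.976).

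A like profile did not always mean a like size. Ncstn, a subunit of gamma-secretase, had log2 ratios of 0.39 and 0.38 in KO over het and 0.38 in DKO over control. Atxn7l1 had 0.55, 0.79 and 0.60. Elf1, an ETS factor, had 1.25, 1.14 and 1.12. Each of these ratios was smaller than the ratio of any of the 6 genes in the same pair. Tekt2 was nearer in size, at 1.42 and 1.91 in KO over het. In DKO over control it had 1.40, above the 1.32 of Itm2a.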

How the data were processed

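The data are RNA sequencing of mouse ES cells. Per the submitters' processing notes, the series used TopHat, Bowtie 0.12.7, SAMtools and MACS 1.4.2 with build mm9; which of these made each table is not stated there, nor is the quantifier. The authors deposited FPKM for 9 libraries, per the file headers, and RPKM for replicate 2 of Sall4 het, KO and KO plus mutant. Neither unit gives back whole reads here, so the depth is unknown and counting intervals are left out. The 68 other samples of the series were not analysed here.

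Entries sharing a symbol were summed. TT2, at transcript level, entered no ratio or fit. Libraries of a comparison were scaled by the median of their ratios, taken over genes that reach 1 in each, and log2(scaled value + 1) was used. Deposited values are printed unscaled. Ratios are within pairs. Shares over all genes use those at 5 or more in either library of a pair.

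limma 3.58.1 (R 4.3.3) was fitted across all genes listed in every library of the fit and at 1 or more in at least 2 (11636 genes for 6 libraries, 11720 for 7), with the replicate number as a block and Benjamini-Hochberg adjustment. The number also marks unit and strain label, per the labels and headers. Deviations from group means correlated at 0.58 between het and KO, 0.10 between het and mutant and 0.06 between KO and mutant of the same number. The fitting script was tested on simulated data.

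The 6 genes and the gene lists were chosen with earlier results of these data known. Named beyond the 6 were relatives at 2-fold in both KO pairs, the leading genes at 2-fold in all 3 pairs and the 5 most alike in profile, of which 1 is not reported here, with Emp3, Itm2b, Itm2c, Dpp8, Dpp9, Sparc, Id1, Bmp4, Nanog, Mir3060 and AF357355 named after their values were seen. Alternatives changed the scaling, pseudocount, filter, summing of entries, block and each library in turn.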

Additional observations from a re-analysis of the deposited data

How the results depend on the processing

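The counts of the 6 genes higher in KO, at 2-fold in DKO and in the Sall1 pair, and lower after mutant or wild-type add-back were the same under every alternative tried for them. The count at least 2-fold lower with mutant in both replicates was 2, and 5 as deposited, 4 with upper quartile scaling, 5 with pseudocount 0.1 and 5 with no pseudocount. The counts above het moved by at most 1. All estimates of KO against het (72 values, 1.73 to 2.88), of mutant against KO (72 values, -2.28 to -0.62) and of DKO against control (24 values, 1.30 to 2.64) kept their sign. The Sall1 values split into 12 above and 12 below 0. Using values as deposited shifted all genes by -0.26 and -0.38 (log2) in mutant against KO and by -0.20 in wild type against KO, and the 6 genes stayed lower by more than that shift. The alternatives for the 2-fold counts after add-back, the counts above het and the return towards het were chosen after seeing the data and the median return of 62.3% moved by less than the spread over the genes.

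Counts called by limma depended on single libraries, and the cause was not tested. Wild type against mutant called 0 genes, 1 as deposited, 2 with upper quartile scaling, 1 with pseudocount 0.1 and 1 with no filter, and from 0 to 365 with 1 library left out. KO against het called 0, 1 as deposited, 1 with upper quartile scaling, 1 with pseudocount 0.1, 1 with no replicate block, and from 0 to 23 with 1 library left out. Mutant against KO called 0, and from 0 to 764 with 1 library left out. With no replicate block, the calls for mutant against KO and for wild type against mutant were 0 as well. Of wild type minus mutant, 3 estimates changed sign with 1 library left out, Fstl1 (range -0.76 to 0.021) and Itm2a (-0.032 to 0.79) without KO plus mutant replicate 2, and Cachd1 (-0.17 to 0.36) without replicate 1. Depth is unknown, and 1 or 2 libraries a group limit every comparison.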
